A study of Mus musculus with 10 samples.

Results

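The immunoglobulin heavy chain V segments are the Ighv genes of the heavy chain locus on chromosome 12. Their members were all genes whose Ensembl identifier maps to a mouse symbol that starts with Ighv, 134 symbols from 135 identifiers among 33585 genes. Their values were read in lymph nodes of 6-week-old female BALB/c mice with 4T1 tumors, a BALB/c mammary carcinoma line, implanted in the mammary fat pad. The labels name 2 groups of 5 libraries, MWA and MWA+2DG, and the tissue only as lymph node. Per the study's methods, both groups carried a tumor that was treated by microwave ablation (MWA) on day 10, the MWA group then received PBS and the MWA+2DG group 2DG (2-deoxy-D-glucose, a glucose analogue that inhibits glycolysis), each every 2 days. The tumor-draining lymph nodes (TDLNs) were taken on day 15, so no node without ablation stands in the comparison, which asks what 2DG changes after MWA.

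A B cell builds its heavy chain gene by joining 1 V segment to a D and a J segment, and all its daughter cells keep that choice. V segment RNA in a lymph node therefore reflects the rearranged heavy chains of its B cells but is no count of them. A plasma cell, which secretes antibody, holds much more of it than a resting B cell. V segments are grouped in families by sequence likeness, and the family number stands after Ighv in the symbol.

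Values are FPKM, fragments scaled to transcript length and library size, deposited per gene and library, so read depth and counting error are unknown. Each library had 24327 to 25226 identifiers above 0 and a summed FPKM between 312143 and 359984. On the first principal component of the tested genes, with 36.4% of the variance, replicates 1 and 2 of both groups lay between 18.9 and 23.4. Replicates 3 to 5 were spread more widely, between -33.5 and 1.58. The labels do not give these 2 replicate sets, and the split was read from these same data. What the sets are is unknown, each set holds both groups, and values within sets are given where they matter. The B cell genes Cd79a and Cd79b, which code for the signalling partners of the B cell receptor, lay between 373 and 567 FPKM in all 10 libraries, and the T cell receptor gene Trbc2 between 248 and 507 FPKM. The labels do not say that the libraries come from separate mice, so a p-value here measures the spread between these libraries. V segments resemble each other, the mice are BALB/c and the reference is C57BL/6, so the sharing of reads among related segments is uncertain. A segment is called functional or a pseudogene by the annotation of the C57BL/6 reference, and its status in BALB/c was not checked.

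The segments on which the results turn are shown with the first 300 bases of their coding sequence in the C57BL/6 reference (GENCODE M21, GRCm38), 5′ to 3′. All members lie on chromosome 12, and those shown lie on its minus strand. The first set holds both segments whose groups did not overlap (Ighv11-2 and Ighv14-1), the segment that passed the adjusted threshold when 1 library was left out (Ighv1-26) and the most abundant segment (Ighv1-66). Capitals mark the first coding exon, 46 bases of the leader peptide, and the lower case part is the second exon with the V region, shown up to base 300 of 351 or 353 coding bases.
Ighv11-2 (chr12:114048241-114048812): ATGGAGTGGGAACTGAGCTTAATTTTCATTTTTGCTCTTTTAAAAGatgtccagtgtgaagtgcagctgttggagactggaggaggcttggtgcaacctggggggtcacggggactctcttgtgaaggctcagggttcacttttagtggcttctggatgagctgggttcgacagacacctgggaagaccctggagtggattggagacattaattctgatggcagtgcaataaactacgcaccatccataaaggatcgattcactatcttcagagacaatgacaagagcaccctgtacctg
Ighv14-1 (chr12:113931953-113932382): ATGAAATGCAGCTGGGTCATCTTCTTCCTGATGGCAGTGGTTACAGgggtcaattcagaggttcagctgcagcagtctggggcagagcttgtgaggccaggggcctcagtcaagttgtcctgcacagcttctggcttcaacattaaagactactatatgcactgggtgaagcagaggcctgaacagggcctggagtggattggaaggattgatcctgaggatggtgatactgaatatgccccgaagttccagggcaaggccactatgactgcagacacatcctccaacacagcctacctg
Ighv1-26 (chr12:114788372-114788805): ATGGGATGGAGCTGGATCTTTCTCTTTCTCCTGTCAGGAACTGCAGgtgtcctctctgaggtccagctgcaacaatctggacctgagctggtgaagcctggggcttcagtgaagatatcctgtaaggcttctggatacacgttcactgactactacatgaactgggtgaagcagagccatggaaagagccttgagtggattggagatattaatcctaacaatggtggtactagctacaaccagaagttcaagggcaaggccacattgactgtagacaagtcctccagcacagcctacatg
Ighv1-66 (chr12:115593110-115593591): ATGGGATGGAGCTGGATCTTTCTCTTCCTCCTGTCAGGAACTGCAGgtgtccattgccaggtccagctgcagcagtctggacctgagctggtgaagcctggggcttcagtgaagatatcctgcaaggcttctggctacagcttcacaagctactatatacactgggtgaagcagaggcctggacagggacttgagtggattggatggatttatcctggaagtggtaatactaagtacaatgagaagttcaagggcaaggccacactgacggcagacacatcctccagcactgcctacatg

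The second set holds 3 Ighv5 segments, of which Ighv5-4 and Ighv5-12 led MWA+2DG replicate 1 and Ighv5-6 was high in every library. Here capitals mark the bases that differ from Ighv5-4, 19 in the 300 bases shown of Ighv5-12 and 13 in those of Ighv5-6.
Ighv5-4 (chr12:113597446-113597977): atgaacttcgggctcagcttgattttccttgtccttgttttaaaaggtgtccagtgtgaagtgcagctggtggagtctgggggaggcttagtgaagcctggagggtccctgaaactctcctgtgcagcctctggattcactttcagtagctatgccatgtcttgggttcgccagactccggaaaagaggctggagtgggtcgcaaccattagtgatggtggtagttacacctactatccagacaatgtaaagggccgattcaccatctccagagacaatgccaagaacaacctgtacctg
Ighv5-12 (chr12:113702124-113702578): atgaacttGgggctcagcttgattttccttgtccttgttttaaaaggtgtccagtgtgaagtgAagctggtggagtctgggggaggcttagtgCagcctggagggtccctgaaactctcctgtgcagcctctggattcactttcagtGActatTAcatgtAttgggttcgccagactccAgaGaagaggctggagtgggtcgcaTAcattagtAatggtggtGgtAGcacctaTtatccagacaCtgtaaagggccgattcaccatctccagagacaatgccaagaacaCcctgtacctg
Ighv5-6 (chr12:113625506-113625956): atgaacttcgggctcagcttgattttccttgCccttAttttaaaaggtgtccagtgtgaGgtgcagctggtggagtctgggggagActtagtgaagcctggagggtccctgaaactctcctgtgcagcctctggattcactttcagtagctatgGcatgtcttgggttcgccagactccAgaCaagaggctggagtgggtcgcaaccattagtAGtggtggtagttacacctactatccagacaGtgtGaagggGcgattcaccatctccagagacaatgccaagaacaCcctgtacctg

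Ighv5-4 was 95.5% identical to Ighv5-6 and 94.1% to Ighv5-12 over the aligned coding bases. Of 106 members with a coding sequence, 51 had another member at least 95% identical. Ighv11-2 was 98.9% identical to Ighv11-1, which had a mean under 1 FPKM, and Ighv14-1 was 97.4% identical to Ighv14-4.

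Taken as a sum, Ighv signal was lower on average in the MWA+2DG group, but the libraries overlapped widely. The 5 MWA libraries held 935, 1144, 4114, 3225 and 2678 FPKM of Ighv signal in replicates 1 to 5, and the 5 MWA+2DG libraries 2568, 896, 613, 1884 and 935 FPKM. MWA replicates 3, 4 and 5 were the highest of all, MWA+2DG replicate 1 came next, and MWA replicates 1 and 2 lay below MWA+2DG replicates 1 and 4 and above the other 3 MWA+2DG libraries, by less than 1 FPKM between MWA replicate 1 and MWA+2DG replicate 5. The means were 2419 ± 1362 FPKM for MWA and 1379 ± 819 FPKM for MWA+2DG (SD, n = 5 each), a ratio of 1.75. As a share of all FPKM in a library, Ighv segments made up 0.279% to 1.26% with MWA and 0.197% to 0.798% with MWA+2DG. No test was made on sums over the members, and in whole nodes fewer B lineage cells and less V segment RNA per cell cannot be told apart. The order of the groups differed by replicate set. In replicates 3 to 5 the MWA mean was 3339 FPKM and the MWA+2DG mean 1144 FPKM, with no overlap, while in replicates 1 and 2 the means were 1040 and 1732 FPKM, the other way round, with overlap. The higher mean in replicates 1 and 2 was carried by MWA+2DG replicate 1 at 2568 FPKM, and MWA+2DG replicate 2 at 896 FPKM lay below both MWA libraries.

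**Figure D1:**
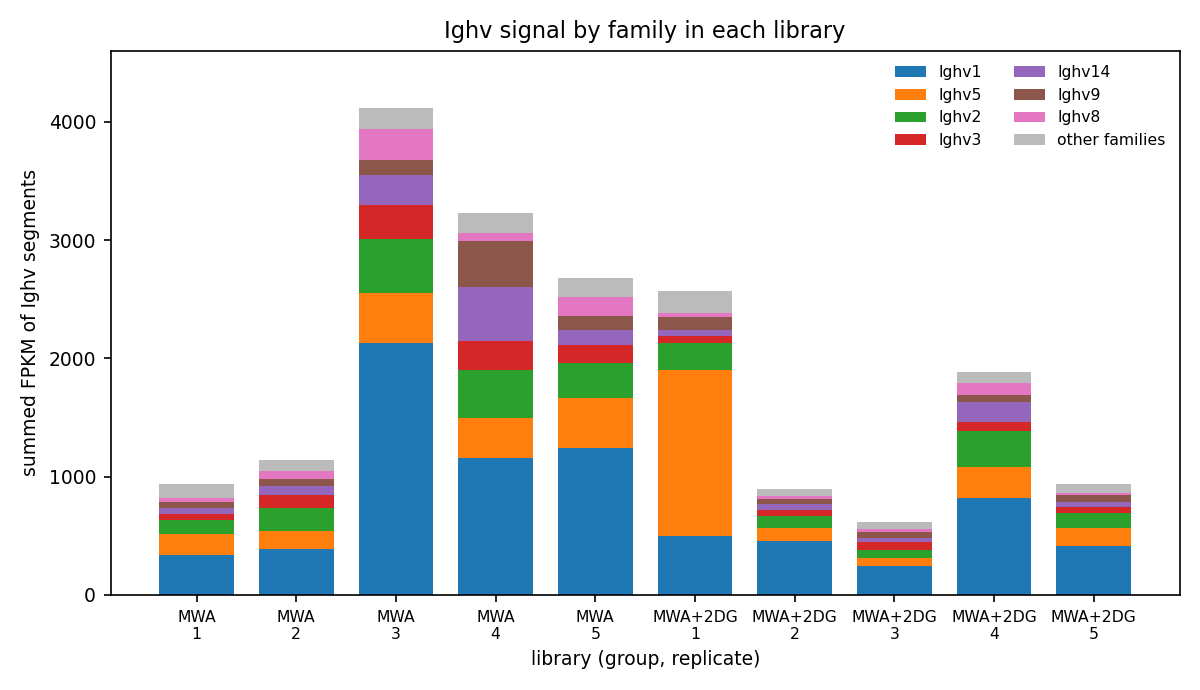
Summed FPKM of Ighv segments in each of the 10 libraries (bars), stacked by family, with the 7 families of largest mean share in color and the other families in grey. MWA replicates 3 to 5 reach 2678 to 4114 FPKM, and in MWA+2DG replicate 1 the Ighv5 family alone makes up 1404 of 2568 FPKM.

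Segment by segment, 92 of the 134 members reached a mean of 1 FPKM across the libraries and were tested among all 13334 such genes by limma on log2(FPKM + 1). A fold change is therefore on the log2(FPKM + 1) scale, MWA+2DG minus MWA, and understates the change of low segments. By the study's rule (unadjusted P below 0.05 and a log2 fold change beyond 0.25), 24 of the 92 segments were lower in the MWA+2DG group and 0 were higher. Among all tested genes 1.87% were lower and 0.952% higher by that rule, against 26.1% and 0% of the segments. The log2 fold change was below 0 for 85 of the 92 segments, 92.4% against 47.4% of all tested genes, with a median of -0.70 against 0.01. The segments were read in the same libraries and can rise and fall together with the Ighv signal of a library. These counts are therefore not counts of independent findings. No segment and no other gene passed Benjamini-Hochberg adjustment over the 13334 genes in limma (smallest adjusted p = 0.995), while 24 segments and 567 genes had an unadjusted P below 0.05, which is 26.1% of the segments and 4.25% of all tested genes. The Wilcoxon rank-sum test also gave 0 segments at an adjusted p below 0.05, and 10 lower by the rule, against 1.07% of all tested genes. When MWA+2DG replicate 2 was left out the count of lower segments was 14, against 2.01% of all tested genes. When MWA+2DG replicate 3 was left out it was 15, against 1.67%. In every fit with 1 library left out 12 segments were called, and the share of all tested genes called in every such fit is not given.

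**Figure D2:**
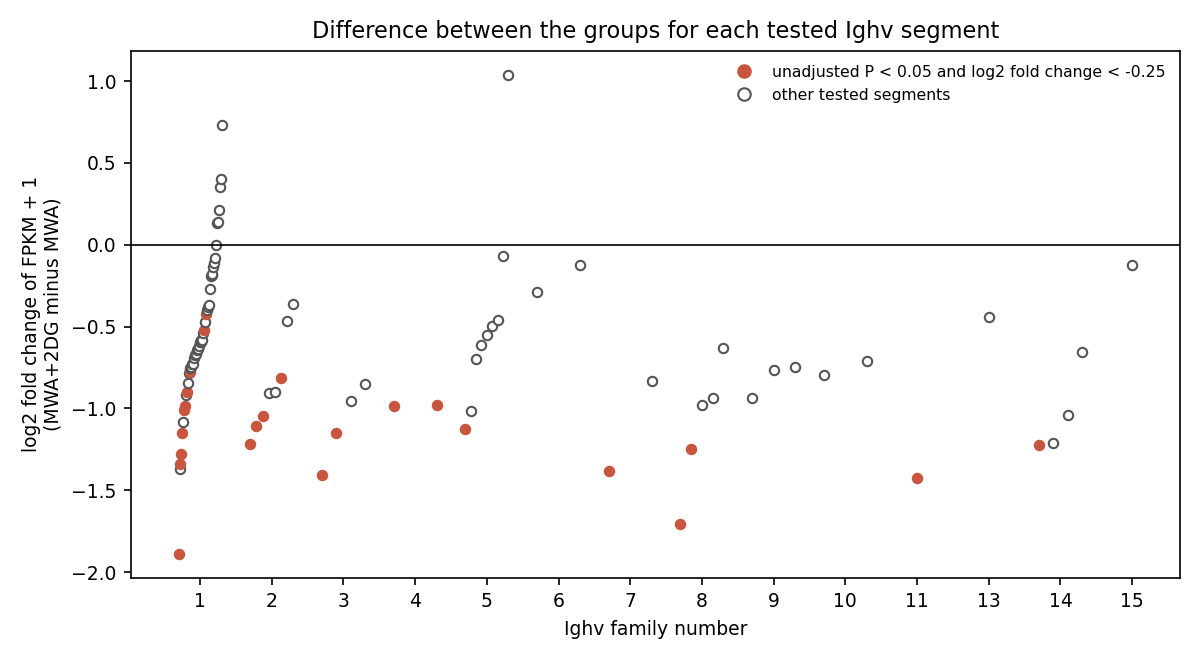
Log2 fold change of FPKM + 1 (vertical axis, MWA+2DG minus MWA) of the 92 tested segments by family number (horizontal axis), with filled points for segments lower by the study's rule and open points for the rest. All 24 filled points and 85 of all 92 points lie below 0.

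Of the 42 members that were not tested, 1 was at 0 in every library, and 27 of all members were above 0 in fewer than 5 libraries. The members on either side of the filter were Ighv1-62 with a mean of 0.991 FPKM and Ighv1-78 with 1.10 FPKM. With no filter 133 segments entered the fit, of which 16 were lower by the rule, 12% against 0.772% of all genes, and 0 higher against 0.522%.

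The groups did not overlap for 2 of the 92 segments, Ighv11-2 and Ighv14-1, 2.17% against 0.51% of all tested genes that were lower in this way, and 0 segments were higher in every MWA+2DG library against 0.292% of all genes. Ighv11-2, a low segment known for its use by B-1 cells, was at 1.69, 8.94, 2.68, 3.55 and 8.11 FPKM in MWA replicates 1 to 5 and at 1.58, 1.15, 0.756, 0.699 and 0.768 FPKM in MWA+2DG replicates 1 to 5. MWA replicates 2 and 5 were high, and the gap between MWA replicate 1 and MWA+2DG replicate 1 was narrow. The fold change was -1.42 on the log2 scale with a standard error of 0.34 (limma P = 0.00145, the smallest of the segments, adjusted p = 0.995, exact permutation p = 0.00794). The exact permutation tests are two-sided, and 0.00794 is the smallest p they can give with 5 against 5.

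Ighv14-1 was at 12.3, 18.6, 19.2, 13.8 and 16.1 FPKM with MWA and at 3.58, 10.3, 1.496, 12.2 and 10.2 FPKM with MWA+2DG. All MWA libraries lay close together, MWA+2DG replicates 1 and 3 were lowest, and MWA+2DG replicate 4 nearly reached MWA replicate 1. The log2 fold change was -1.22 with a standard error of 0.42 (limma P = 0.0139, adjusted p = 0.995, exact permutation p = 0.00794), and without MWA replicate 3 and MWA+2DG replicate 1, left out after the data were seen, it was -0.99 and past the threshold no more (limma P = 0.0689, a fit over 8 libraries, no exact test run). The count of 2 segments rests on narrow gaps: it was 1 after rescaling each library to 1000000, 1 after median ratio scaling and 0 after rescaling without immunoglobulin genes. With 1 library left out it lay between 2 and 8, reaching 8 when MWA replicate 1 was dropped, 4 for MWA replicate 2, 6 for MWA+2DG replicate 1 and 5 for MWA+2DG replicate 4. With fewer libraries any gene is more easily without overlap. The share of all tested genes is not given for these counts, after rescaling or with libraries left out. Neither their fall nor their rise is therefore read as a result about the segments.

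Next by P came Ighv1-26, at 16.2, 5.70, 16.1, 26.6 and 19.0 FPKM with MWA and at 4.54, 6.32, 5.11, 5.99 and 6.45 FPKM with MWA+2DG. MWA replicate 2 lay within the MWA+2DG range and the other 4 MWA libraries lay above 16 FPKM. The fold change was -1.28 on the log2 scale with a standard error of 0.31 (limma P = 0.0016, adjusted p = 0.995, exact permutation p = 0.0317). Leaving out MWA replicate 2 gave -1.60 and an adjusted limma p of 0.0182, the 1 segment past the adjusted threshold in any fit with a library left out. It was also the 1 gene of all 13334 past it in that fit. The fit drops the only MWA library inside the MWA+2DG range, so this p is not read as support. The Wilcoxon rank-sum test gave an exact p of 0.0556 for Ighv1-26.

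Ighv3-2 and Ighv4-2, annotated as pseudogenes, and Ighv8-8, annotated as functional, completed the 5 lower segments of smallest P. Ighv3-2 was at 13.5, 24.9, 31.5, 41.0 and 31.6 FPKM with MWA and at 16.4, 8.15, 7.69, 15.3 and 12.7 FPKM with MWA+2DG, with only MWA replicate 1 inside the range of the other group. Ighv4-2 averaged 15.5 ± 6.32 FPKM with MWA and 7.26 ± 2.65 FPKM with MWA+2DG (SD, n = 5 each). Ighv8-8 averaged 43.5 ± 31.9 FPKM with MWA and 11.0 ± 5.31 FPKM with MWA+2DG (SD, n = 5 each). The log2 fold changes were -1.15 for Ighv3-2, -0.99 for Ighv4-2 and -1.71 for Ighv8-8, with limma P of 0.00236, 0.00504 and 0.00507, an adjusted p of 0.995 each and exact permutation p of 0.0238, 0.0159 and 0.0159.

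At the other end, no segment was higher by the rule, and the 3 highest fold changes came from segments whose spread was wide. Ighv1-81 was at 0.685, 0.786, 2.48, 4.28 and 15.6 FPKM with MWA and at 106, 3.10, 1.37, 1.95 and 2.81 FPKM with MWA+2DG. Ighv1-77 was at 54.9 FPKM in MWA+2DG replicate 1 and at no more than 5.14 FPKM in any other library. In both, MWA+2DG replicate 1 stood alone and the other MWA+2DG libraries lay within the MWA range. Their log2 fold changes of 0.73 and 0.40 had exact permutation p of 0.603 and 0.905, and without MWA+2DG replicate 1 they were -0.28 and -0.57. The pseudogene Ighv5-1 had the highest fold change, 1.04 (limma P = 0.233, exact permutation p = 0.294), was listed at 0 in MWA replicates 1 and 4, and lay between 2.47 and 18.1 FPKM with MWA+2DG.

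By family, the decrease in mean sum was spread over 13 of 15 families, and the exceptions were Ighv5 and Ighv6, both led by MWA+2DG replicate 1. Ighv1, the largest family with 70 members, had 48 tested segments, of which 10 were lower and 42 had a negative fold change, with a median of -0.59. Its sum was 1051 ± 733 FPKM with MWA and 485 ± 210 FPKM with MWA+2DG (SD, n = 5 each). In Ighv2, 4 of 8 tested segments were lower and all 8 had a negative fold change. Both tested segments of Ighv4 were lower, as were 2 of 4 in Ighv3, 2 of 5 in Ighv8, 1 of 2 in Ighv7 and 1 of 4 in Ighv14. The only tested Ighv11 segment was Ighv11-2, and Ighv11 was the 1 family of the 15 whose sums did not overlap. In Ighv5, 1 of 9 tested segments was lower. Of the other families with tested segments, Ighv6, Ighv9, Ighv10, Ighv13 and Ighv15 had 0 lower segments of 2, 3, 2, 1 and 1, and no Ighv12 segment was tested.

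The share of a family in the Ighv signal of its library overlapped between the groups for every family. Ighv1 held 36.2%, 34.0%, 51.7%, 35.9% and 46.3% of the signal in MWA replicates 1 to 5 and 19.4%, 51.0%, 39.4%, 43.4% and 44.0% in MWA+2DG replicates 1 to 5. MWA+2DG replicate 1 was far below the rest and MWA replicate 3 the highest. The means were 40.8% ± 7.74 and 39.4% ± 11.9 (SD, n = 5 each), a difference well within the spread, and without MWA+2DG replicate 1 the difference turned to 3.61 percentage points in favor of MWA+2DG. Ighv5 held 10.3% to 19.0% with MWA and 11.7% to 16.8% in 4 of the MWA+2DG libraries, but 54.7% in MWA+2DG replicate 1. Its means were 13.8% ± 3.70 with MWA and 21.8% ± 18.5 with MWA+2DG (SD, n = 5 each). Ighv2 held 12.7% ± 2.19 with MWA and 12.3% ± 2.73 with MWA+2DG, and Ighv14 held 7.44% ± 3.84 and 5.23% ± 2.31 (SD, n = 5 each). For Ighv8 the means were 4.92% ± 1.80 with MWA and 3.28% ± 1.57 with MWA+2DG (SD, n = 5 each).

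Single segments dominated single libraries. Ighv1-66 had the highest mean of all members and was at 8.03, 7.10, 1234, 23.0 and 17.8 FPKM in MWA replicates 1 to 5 and at 10.2, 7.42, 6.01, 90.3 and 53.1 FPKM in MWA+2DG replicates 1 to 5. MWA replicate 3 alone held the bulk of it, 30% of that library's Ighv signal, and the groups otherwise overlapped. The log2 fold change was -0.73 (limma P = 0.593, exact permutation p = 0.746) and turned to 0.57 without MWA replicate 3. Ighv5-4 was at 65.7, 30.5, 42.8, 45.4 and 100 FPKM with MWA and at 914, 17.3, 13.2, 54.5 and 24.9 FPKM with MWA+2DG. In MWA+2DG replicate 1 it made up 35.6% of the Ighv signal, while the other 4 MWA+2DG libraries lay between 13.2 and 54.5 FPKM. Over all 10 libraries the log2 fold change was -0.07 (limma P = 0.947, exact permutation p = 0.976), and without MWA+2DG replicate 1 it was -1.11 and past the study's rule.

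Other segments were also high in MWA+2DG replicate 1. Ighv5-12 was at 237 FPKM there and at 10.02 to 18.6 FPKM in the other MWA+2DG libraries, below the 17.9 to 110 FPKM of the MWA group but for an overlap at MWA replicate 2. For it the log2 fold change was -0.61 over all libraries and, without MWA+2DG replicate 1, -1.40 and past the rule. Ighv6-3, at 73.1 FPKM there and 6.40 to 17.0 FPKM in the other 4, went from -0.29 to -0.83 and past the rule. Ighv5-6, the close relative of Ighv5-4, was at 161 FPKM in MWA+2DG replicate 1 but at 178 FPKM in MWA replicate 3, so it did not stand apart.

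**Figure D3:**
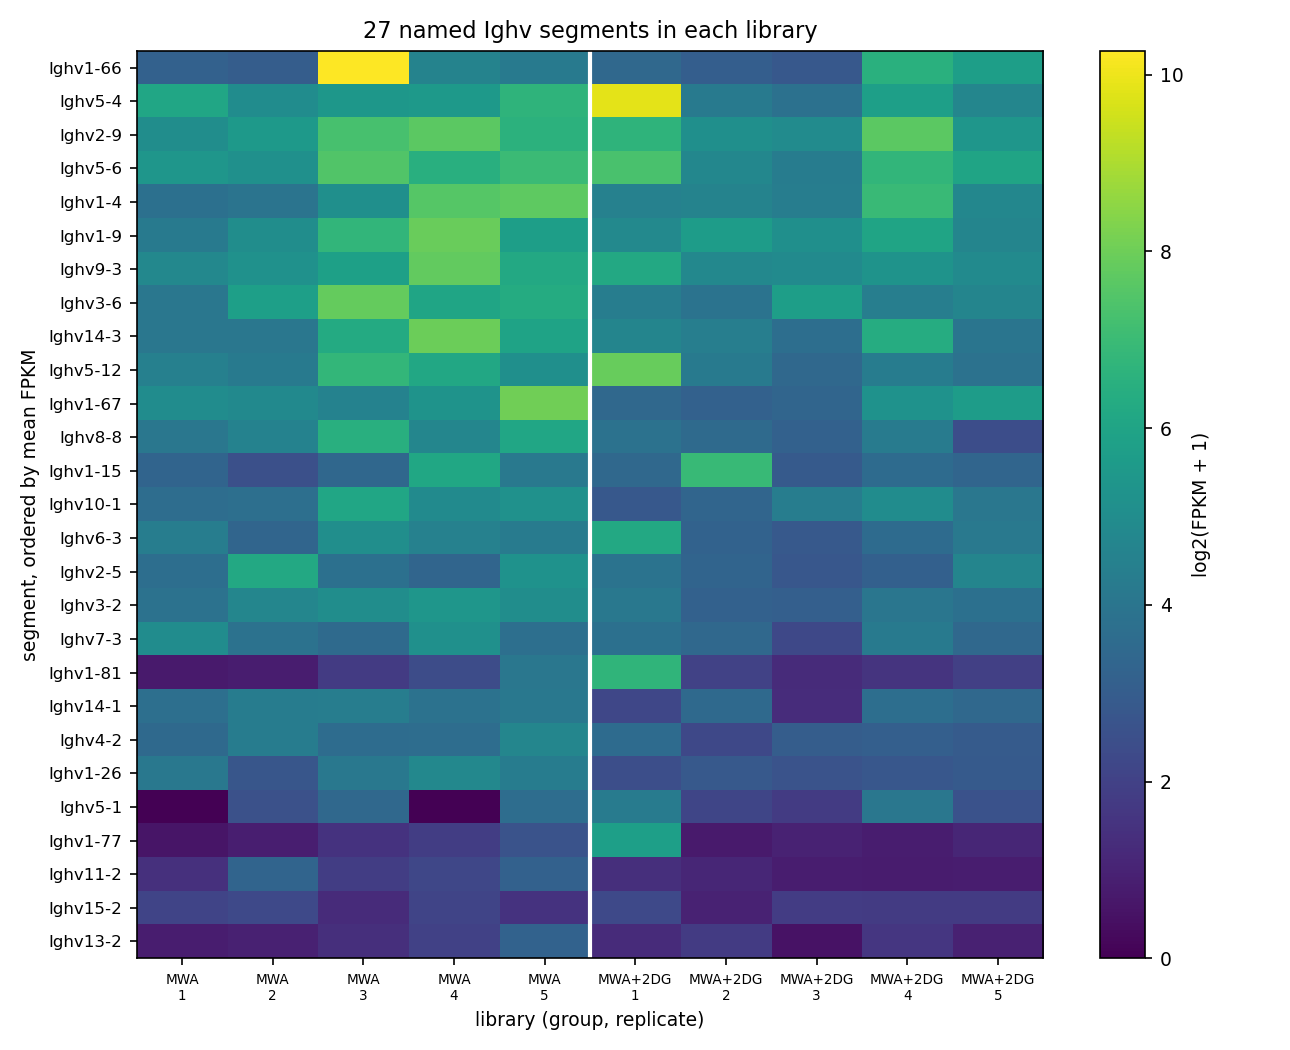
Log2(FPKM + 1) (color) of the 27 segments named by rule (rows, ordered by mean FPKM) in each library (columns), with a white line between the groups. The brightest cells are Ighv1-66 in MWA replicate 3 at 1234 FPKM and Ighv5-4 in MWA+2DG replicate 1 at 914 FPKM.

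The most abundant segment differed from library to library, with 9 different segments leading the 10 libraries. Ighv5-4 led MWA replicate 1 and MWA+2DG replicate 1. In the MWA group Ighv2-5 led replicate 2 with 72.6 FPKM, Ighv1-66 replicate 3, Ighv14-3 replicate 4 with 247 FPKM and Ighv1-67 replicate 5 with 262 FPKM. In the MWA+2DG group Ighv1-15 led replicate 2 with 119 FPKM, Ighv3-6 replicate 3 with 52.4 FPKM, Ighv2-9 replicate 4 with 207 FPKM and Ighv5-6 replicate 5 with 62.7 FPKM. For 38 of the 92 tested segments, 41.3% against 1.28% of all tested genes, the highest library was at least 2 times the next. In 30 of the 38 that library was an MWA library, with 11 in replicate 4, 9 in replicate 3 and 6 in replicate 5, and 6 of the other 8 had it in MWA+2DG replicate 1. The median coefficient of variation within a group was 0.763 with MWA and 0.631 with MWA+2DG over the segments, against 0.150 and 0.124 over all tested genes.

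Other segments were abundant in every library. Of the 38 segments that were among the 10 most abundant of any library, 2 were so in all 10 libraries (Ighv2-9 and Ighv5-6) and 22 in 1 library only. Ighv2-9 was at 32.1, 44.4, 156, 204 and 95.0 FPKM with MWA and at 100, 33.2, 29.7, 207 and 40.7 FPKM with MWA+2DG. Ighv5-6 averaged 93.6 ± 60.0 FPKM with MWA and 75.6 ± 59.6 FPKM with MWA+2DG (SD, n = 5 each). Both overlapped between the groups, with log2 fold changes of -0.46 each and exact permutation p of 0.524 and 0.54. For Ighv5-6, MWA+2DG replicates 2 and 3 lay at 26.2 and 19.1 FPKM, below the MWA minimum of 35.0 FPKM. The other MWA+2DG libraries lay within the MWA range. Any 2 libraries shared 3 to 7 of their 10 most abundant segments, with a median of 4.5 within the MWA group, 4 within the MWA+2DG group and 5 between the groups.

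Among the remaining members of the 10 highest means, Ighv3-6 alone was lower by the rule. It was at 15.9, 54.6, 231, 63.8 and 79.6 FPKM with MWA and at 19.3, 14.1, 52.4, 20.1 and 24.5 FPKM with MWA+2DG. MWA replicate 1 was as low as the MWA+2DG libraries, and MWA+2DG replicate 3 came near MWA replicate 2. The log2 fold change was -1.40 with a standard error of 0.59 (limma P = 0.0357, adjusted p = 0.995, exact permutation p = 0.0794), and P lay above 0.05 without any single library other than MWA replicate 1, MWA replicate 2 or MWA+2DG replicate 3. Ighv14-3 had -1.04, Ighv9-3 -0.75, Ighv1-9 -0.67 and Ighv1-4 -0.58, with exact permutation p from 0.278 to 0.611. In Ighv9-3, Ighv14-3 and Ighv1-9 the highest value lay in MWA replicate 4, at 220, 247 and 245 FPKM.

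The library leaders outside the 10 highest means did not pass the test. Ighv1-67 stood at -1.37 in log2 fold change (exact permutation p = 0.111), with 22.7 to 38.2 FPKM in the MWA libraries other than replicate 5 and 8.22 to 50.4 FPKM with MWA+2DG. Ighv2-5 had -0.90 (exact permutation p = 0.19). Ighv1-15 had 0.13 (exact permutation p = 0.825), turning to -0.58 without MWA+2DG replicate 2, and lay between 6.45 and 10.9 FPKM in the MWA+2DG libraries other than replicate 2. The leading segments of the smaller families had log2 fold changes of -0.80 for Ighv10-1, -0.83 for Ighv7-3, -0.44 for Ighv13-2 and -0.12 for Ighv15-2, with exact permutation p from 0.135 to 0.667.

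The spread of the signal over segments did not separate the groups. The effective number of segments, the exponential of the Shannon entropy of the shares, was 61.6, 59.3, 24.5, 42.5 and 51.4 with MWA and 20.2, 51.4, 52.5, 45.9 and 55.2 with MWA+2DG. MWA replicate 3 and MWA+2DG replicate 1 were lowest and the other 8 libraries lay above 42. The means were 47.9 ± 15.0 with MWA and 45.1 ± 14.3 with MWA+2DG (SD, n = 5 each). The 10 most abundant segments made up 34.7% to 66.7% of the signal with MWA and 39.2% to 70.5% with MWA+2DG, and 104 to 113 and 101 to 112 members were above 0. Without MWA replicate 3 and MWA+2DG replicate 1, a choice made after seeing the data, 22 segments were lower and 0 higher by the rule. Of all 13334 tested genes 242 (1.81%) were lower and 114 higher in that fit. Of the 22 segments 15 were among the 24.

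**Figure D4:**
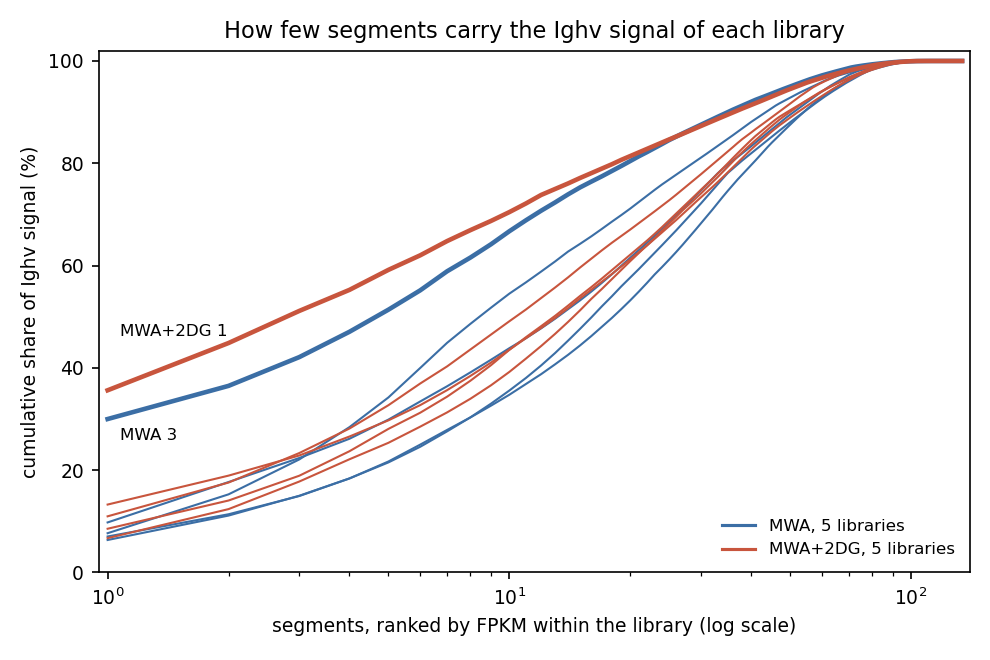
Cumulative share of the Ighv signal in percent (vertical axis) over segments ranked by FPKM within each library (horizontal axis, log scale), 1 line per library, blue for MWA and red for MWA+2DG. The 2 thick lines, MWA+2DG replicate 1 and MWA replicate 3, start at 35.6% and 30%, and the other 8 start between 6.34% and 13.3%.

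The lower segments were found across the locus and in each class of segment. The members lie 143 to 2580 kb from Ighj1 in GRCm38, and of the 67 members nearest to it 49 were tested and 14 lower, against 10 of 43 tested among the 67 farthest. Those nearest made up 47.1% to 80.3% of the Ighv signal with MWA and 64.7% to 83.8% with MWA+2DG. Among the 82 tested segments annotated as functional V genes 20 were lower, with a median log2 fold change of -0.72, and among the 10 tested pseudogenes 4 were lower, with a median of -0.53. The other 2 lower pseudogenes, Ighv1-14 and Ighv1-21, are named here after their values were seen. Ighv1-14 averaged 26.6 ± 7.49 FPKM with MWA and 19.1 ± 2.73 FPKM with MWA+2DG (SD, n = 5 each). Ighv1-21 averaged 11.0 ± 8.73 FPKM with MWA and 2.99 ± 0.687 FPKM with MWA+2DG (SD, n = 5 each). Pseudogenes held 3.18% to 8.02% of the Ighv signal with MWA and 3.56% to 7.60% with MWA+2DG, in overlapping ranges. Of the segments with a relative at least 95% identical 12 of 43 were lower, and of those without 8 of 39. Lower calls were made at each level, for 2 of 12 segments with a mean of at least 50 FPKM, 12 of 37 between 10 and 50 FPKM and 10 of 43 below 10 FPKM.

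The heavy chain constant genes, to which a rearranged V segment is spliced, were measured in the same libraries. MWA replicates 3 to 5 were the highest libraries for each IgG gene, as for the Ighv sum, and below them the order differed by gene. For Ighg3, MWA replicates 1 and 2 were at 31.7 and 27.4 FPKM, below all MWA+2DG libraries but replicate 3 at 23.7 FPKM. Ighg1, the IgG1 constant gene, was at 422, 399, 3316, 1852 and 1773 FPKM with MWA and at 1485, 433, 343, 1560 and 535 FPKM with MWA+2DG. As for the Ighv sum, MWA replicates 3 to 5 were highest, followed by MWA+2DG replicates 1 and 4. In Ighg1, MWA replicates 1 and 2 lay below MWA+2DG replicates 2 and 5, and in the Ighv sum above them. The log2 fold change of Ighg1 was -0.66 (exact permutation p = 0.357). Ighg2b and Ighg3 were lower by the study's rule, with log2 fold changes of -1.56 and -1.26 (limma P = 0.0131 and 0.0409, adjusted p = 0.995 each, exact permutation p = 0.0397 and 0.135), and Ighg3 lost this call when any library but MWA replicates 1 and 2 was left out. Ighg2c had -0.63, Ighe -0.39 and Igha 0.36 (exact permutation p = 0.341, 0.5 and 0.603), and Igha turned to -0.07 without MWA+2DG replicate 4. The name Ighg2c is that of the reference, which is of another strain than the BALB/c mice. Whether these mice carry that gene was not checked, so its values may stand for a related IgG gene.

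Ighm, the constant gene of IgM, had another pattern. It was at 1024, 1014, 992, 991 and 1164 FPKM with MWA and at 849, 776, 836, 833 and 828 FPKM with MWA+2DG, with no overlap and little spread in either replicate set. The fold change was -0.33 on the log2 scale with a standard error of 0.07 (limma P = 0.000472, adjusted p = 0.995, exact permutation p = 0.00794). Ighd, the IgD gene of naive B cells, averaged 340 ± 72.3 FPKM with MWA and 372 ± 35.0 FPKM with MWA+2DG (SD, n = 5 each), with 0.15 as its log2 fold change (exact permutation p = 0.381). The Ighv sum was 0.464 to 0.878 of the summed constant genes with MWA and 0.363 to 0.861 with MWA+2DG. All 4 J segments measured, Ighj1 to Ighj4, had a log2 fold change below 0 (median -0.61), and 0 of the 4 passed the rule.

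**Figure D5:**
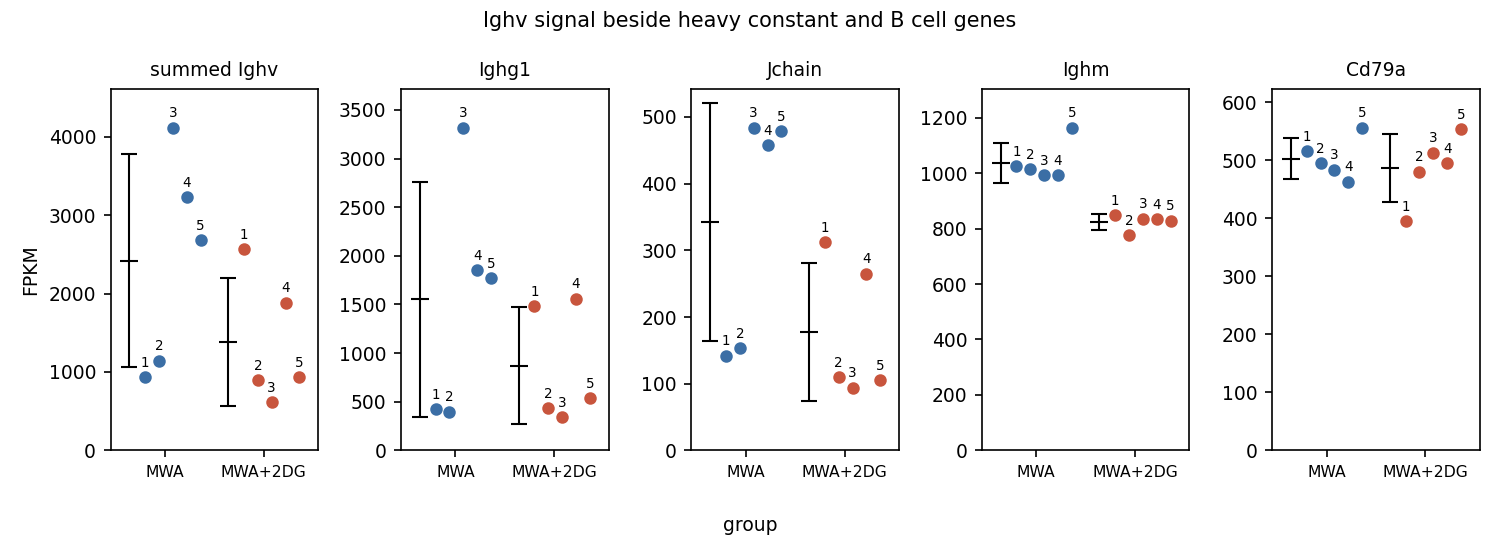
FPKM (vertical axes, each from 0) of the Ighv sum, Ighg1, Jchain, Ighm and Cd79a in each library, labelled by replicate number, with the mean and SD of 5 libraries at the left of each group. MWA replicates 3 to 5 and MWA+2DG replicates 1 and 4 are the highest libraries in the Ighv sum, Ighg1 and Jchain. Ighm does not overlap between the groups, and Cd79a overlaps.

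Markers of the cells that carry V segment RNA moved unequally beside these results. Jchain, which joins secreted IgM and IgA and marks plasma cells, was at 142, 153, 484, 457 and 479 FPKM with MWA and at 312, 109, 94.0, 265 and 106 FPKM with MWA+2DG, in nearly the library order of the Ighv sum. For Jchain the log2 fold change was -0.93 (exact permutation p = 0.143). Of the 15 tested plasma cell genes 14 had a log2 fold change below 0 (median of the 15, -0.20), and 3 were lower by the rule (Mzb1, Xbp1 and Pou2af1). The summed plasma cell list ranged from 711 to 1302 FPKM with MWA and from 614 to 932 FPKM with MWA+2DG. Of the 15 tested B cell genes 0 passed the rule, with a median of -0.07 and sums of 1960 to 2196 FPKM and 1815 to 2084 FPKM. The part of cell numbers in the lower V segments was not tested.

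Germinal centre B cells, in which V segments mutate and are selected, were read by 10 genes. All 10 lay below 0 in log2 fold change (median -0.48), and 7 were lower by the rule, against 1.87% of all tested genes. The 2 most abundant, Mef2b and Basp1, had -0.60 and -0.45 (exact permutation p = 0.0238 and 0.0397). Of 7 tested genes that act in hypermutation and class switching, Polh, a translesion DNA polymerase, was lower, and the most abundant, Apex1 and Msh6, had -0.24 and -0.15 (exact permutation p = 0.143 and 0.278). The summed germinal centre list was 185 to 308 FPKM with MWA and 129 to 202 FPKM with MWA+2DG.

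The other genes of heavy chain expression changed less. The 9 B cell receptor partners all lay below 0 in log2 fold change (median -0.11), led in level by Cd79a at -0.05 and Cd79b at -0.16, and 0 passed the rule. Of 9 factors that act on V promoters and the heavy chain enhancers, Pou2af1, the coactivator of octamer factors, was lower (log2 fold change -0.25, exact permutation p = 0.0317), the others were not, and the second most abundant, Spib, had -0.15. Of 10 genes of V(D)J recombination 7 were tested and 0 passed the rule, with Xrcc5 at -0.07 and Xrcc6 at -0.06.

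Genes of other cells gave the setting. All 15 T cell genes lay above 0 in log2 fold change (median 0.16), Trbc2 at 0.14 and Trbc1 at 0.15, and 1 passed the rule (Cd8a). Of 9 tested macrophage genes 1 was lower (Csf1r), with a median of -0.05, C1qa at -0.12 and C1qb at -0.12. Of 9 tested stromal and adipose genes 0 passed, with Ccl21a and Dcn at 0.02 and -0.02. Of 3 tested neutrophil genes S100a8 and S100a9 were lower, at sums of the list of 12.1 to 92.5 FPKM with MWA and 1.91 to 17.3 FPKM with MWA+2DG. MWA replicate 1 set the upper end, with S100a8 at 21.9 FPKM against 2.40 to 4.05 FPKM in the other MWA libraries and S100a9 at 46.9 FPKM against 7.52 to 12.0 FPKM. The part of these cells in the V segment values was not tested.

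The segments were also compared within the replicate sets, a split read from these same data. In replicates 3 to 5 the groups did not overlap, with MWA+2DG lower, for 36 of the 92 segments, 39.1% against 5.08% of all tested genes, and 0 were higher against 3.96%. In replicates 1 and 2, 21 segments were lower without overlap and 14 higher, 22.8% and 15.2% against 18.9% and 20% of all tested genes. The mean log2 value was lower with MWA+2DG for 85 of the 92 segments in replicates 3 to 5, 92.4% against 47.4% of all tested genes. In replicates 1 and 2 it was lower for 49 segments, 53.3% against 48.7%, near the share of all tested genes. The difference between the sets was not tested. With the set as a term in limma, 28 of the 92 were lower and 0 higher by the rule, and 0 passed the adjusted threshold. Of all 13334 tested genes 297 (2.23%) were lower and 155 higher in that fit.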

How the data were processed

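Per the labels and the study's methods, poly(A) RNA of lymph nodes was sequenced with molecular identifiers. The submitters' processing notes name cutadapt 1.9, HISAT2 2.0.4, UMI-tools, StringTie 1.3.4d and the build mm9, and the methods name fastp, StringTie and ballgown. The authors deposited FPKM per gene, 1 table per library, and no counts or depth. All 135 Ighv identifiers are in GENCODE M21 (GRCm38), which gave sequences, positions and gene types. Symbols matched 33541 of 33643 identifiers and values were summed per symbol. limma 3.58.1 in R 4.3.3 (lmFit, eBayes, no covariate) was run on log2(FPKM + 1) of the 13334 genes whose mean reached 1 FPKM, with the study's thresholds read as log2 and two-sided exact permutation tests for single genes. Identity came from global alignment in Biopython 1.88 over at least 250 aligned bases.

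Named segments were the 10 of highest mean, the highest of each tested family, those past the rule without overlap, the 5 lower of smallest P, the 3 of highest fold change, and each library's most abundant. The members and lists were chosen with earlier results of these data known. Tested on simulated data for this comparison, limma recovered 166 of 200 genes lowered by a log2 fold change of 1 at an adjusted p below 0.05, among 13334, with 7 unchanged genes, and by the study's rule 187 of the 200, with 182 unchanged genes called lower. The 200 were drawn from all tested genes, each at its own spread. The segments vary more, with a median coefficient of variation of 0.763 and 0.631 against 0.150 and 0.124, so this recovery rate cannot be taken for them. Alternatives were another pseudocount, 2 other filters, 4 other scalings, limma-trend, the Wilcoxon test, a replicate block, the replicate set as a term, and leaving out libraries. An item withheld from these lists is not reported here.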

Additional observations from a re-analysis of the deposited data

Results flagged for a closer look

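Of 78 groups of 5 libraries checked for single libraries far from the others by Dixon's test, 21 were marked. Chance marks about 1 in 20 groups, but this rate does not apply here, since segments were named in part for leading a library or for a high fold change. In MWA replicate 3, Ighv1-66 was at 1234 FPKM and the other MWA libraries at 7.10 to 23.0 FPKM, and the most abundant segment held 30.0% of the Ighv signal against at most 9.78% in the others.

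In MWA+2DG replicate 1, Ighv5-4 was at 914 FPKM, Ighv5-12 at 237 FPKM, Ighv1-81 at 106 FPKM, Ighv6-3 at 73.1 FPKM, Ighv9-3 at 71.5 FPKM and Ighv1-77 at 54.9 FPKM, each far above the other MWA+2DG libraries. There the most abundant segment held 35.6% of the signal against at most 13.3%, and the effective number of segments was 20.2 against 45.9 to 55.2.

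In MWA replicate 4, Ighv14-3 was at 247 FPKM, Ighv9-3 at 220 FPKM and Ighv1-15 at 68.0 FPKM. In MWA replicate 5, Ighv1-67 was at 262 FPKM, Ighv1-81 at 15.6 FPKM and Ighm at 1164 FPKM. Among the other MWA+2DG libraries, Ighv1-15 was at 119 FPKM in replicate 2, Ighv3-6 at 52.4 FPKM in replicate 3, and in replicate 4 Ighv1-4 was at 124 FPKM, Ighv14-3 at 79.9 FPKM and Igha at 16.5 FPKM.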

How the results depend on the processing

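Depth is unknown, and the precision is set by 5 libraries a group. No alternative gave a segment that was higher by the study's rule. The count of lower segments, 24, was 10 by the Wilcoxon rank-sum test, 14 to 30 with 1 library left out and 18 or more in those fits except without MWA+2DG replicates 2, 3 and 5 (14, 15 and 17). The share of all tested genes that were lower was 1.07% by the Wilcoxon test and 1.33% to 2.36% with 1 library left out. The count past the adjusted threshold was 0 to 1 with 1 library left out. The count of segments without overlap, 2, was 1 with a filter of 5 FPKM, which takes out Ighv11-2 at a mean of 2.99 FPKM by construction. It was 1 after rescaling to 1000000, 1 with median ratio scaling and 0 after rescaling without immunoglobulin genes. With 1 library left out it was 2 to 8. It was 8 without MWA replicate 3 and MWA+2DG replicate 1 together, an alternative chosen after seeing the data. Fewer libraries make a lack of overlap easier for every gene. The share of all tested genes is not given for any of these alternative counts without overlap. The log2 ratio of the Ighv sums, -0.81, was 0.74 in replicates 1 and 2 only, carried by MWA+2DG replicate 1, and -1.16 to -0.53 with 1 library left out. The difference in the effective number of segments, -2.81, was -24.6 in replicates 1 and 2 only, where MWA+2DG replicate 1 stood at 20.2 and MWA+2DG replicate 2 at 51.4, against 61.6 and 59.3 with MWA. Single log2 fold changes turned their sign as follows. Ighv5-4 gave 0.0017 under quantile normalization and -1.11 to 0.39 with 1 library left out. Without MWA replicate 3 and MWA+2DG replicate 1, Ighv1-66 gave 0.79, Ighv1-81 -0.32 and Ighv1-77 -0.57. With 1 library left out, Ighv1-66 ranged from -1.28 to 0.57, Ighv1-15 from -0.58 to 0.69, Ighv1-81 from -0.28 to 1.26, Ighv1-77 from -0.57 to 0.69, Ighv15-2 from -0.27 to 0.066 and Igha from -0.067 to 0.58. Beyond what these alternatives remove by construction, the cause was not tested.

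With the replicate number as a block (replicate block), 27 segments were lower, against 2.14% of all tested genes. Deviations of same-numbered libraries correlated at 0.331, 0.501, 0.110, 0.033 and 0.151, not all over 0.1, and not every library correlated best with its own number, so the numbers were not taken to pair the libraries.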
